A study of Glycine max with 18 samples.

Results

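The late-onset probes of dehydrated soybean roots were those that stood high in both cultivars after 10 h of dehydration and had moved little after 2 h. They were chosen from the group means of the log2 values as probes with a change against 0 h of at least 1.5 at 10 h and under 0.5 at 2 h in W82 and in DT2008 alike. Of 66195 probes, 19 met all 4 conditions. A gene could be paired with 10 of them, through the study's supplementary tables or the array's gene symbols, and the other 9 are given by their probe numbers. Those tables include lists of genes the study selected on these arrays, so the named members are not a sample of all genes.

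Roots of 14-d-old plants of the drought-sensitive cultivar Williams 82 (W82, the source of the soybean reference genome) and the drought-tolerant Vietnamese cultivar DT2008 were compared on the 66K Affymetrix Soybean GeneChip. The well-watered controls (W-C, DT-C) were taken at 0 h. The dehydrated groups came from plants detached from soil and left to dry, the mildly stressed ones (W-D2, DT-D2) for 2 h and the severely stressed ones (W-D10, DT-D10) for 10 h. By the study's measurements, the aerial parts held relatively less water in the drought-sensitive cultivar at both dehydration times, and more clearly so under severe stress. Cultivar and water loss therefore cannot be told apart in comparisons of the dehydrated groups. Each of the 6 groups had 3 arrays from 3 biological repeats. No plants kept watered for 2 or 10 h were among the samples, so that dehydration and time since the first sampling cannot be told apart. By the study's methods, the plants were dried at a lower temperature and in dimmer light than they had grown in. Effects of that move also cannot be told apart from dehydration. A root is a mixture of tissues, and more cells of a kind cannot be told apart from more RNA per cell. Each probe's values are log2 ratios to its own median over the 18 arrays, which place the groups of a probe relative to one another, say nothing of abundance and do not allow levels of different probes to be compared. Arrays of 1 group correlated with each other at 0.37 to 0.72 over all probes.

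Plants losing water make abscisic acid (ABA), which binds PYR/PYL receptors. The bound receptors block clade A protein phosphatases 2C (PP2C), and SnRK2 kinases are then free to switch on ABA-responsive transcription factors. Several PP2C genes are themselves switched on by ABA, which gives the pathway a brake. Further responses of water-limited roots include changes in water channels of the plasma membrane and the vacuole membrane, in protein turnover through ubiquitin ligases and in regulators of growth.

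The 19 probes made up a small part of the genes that were high after 10 h. In all, 581 probes had a 10 h change of at least 1.5 in both cultivars. Of these, 485 already had a 2 h change of at least 0.5 in both cultivars, 77 had it in 1 cultivar, and 19 in neither. Among the late-onset probes the 10 h changes ran from 1.51 to 2.93 in W82 (median 1.99) and from 1.52 to 2.62 in DT2008 (median 1.90), while the 2 h changes ran from -0.23 to 0.45 (median 0.21) and from -0.09 to 0.47 (median 0.27). Over all probes the 4 medians lay at -0.03, -0.02, -0.02 and -0.02. These changes chose the members and are given as a description, with no test. The standard error (SE) of such a change in the fit was 0.16 to 0.32 for the members, so that several 2 h changes lie within 1 SE of the threshold, 9 in W82 and 11 in DT2008.

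**Figure D1:**
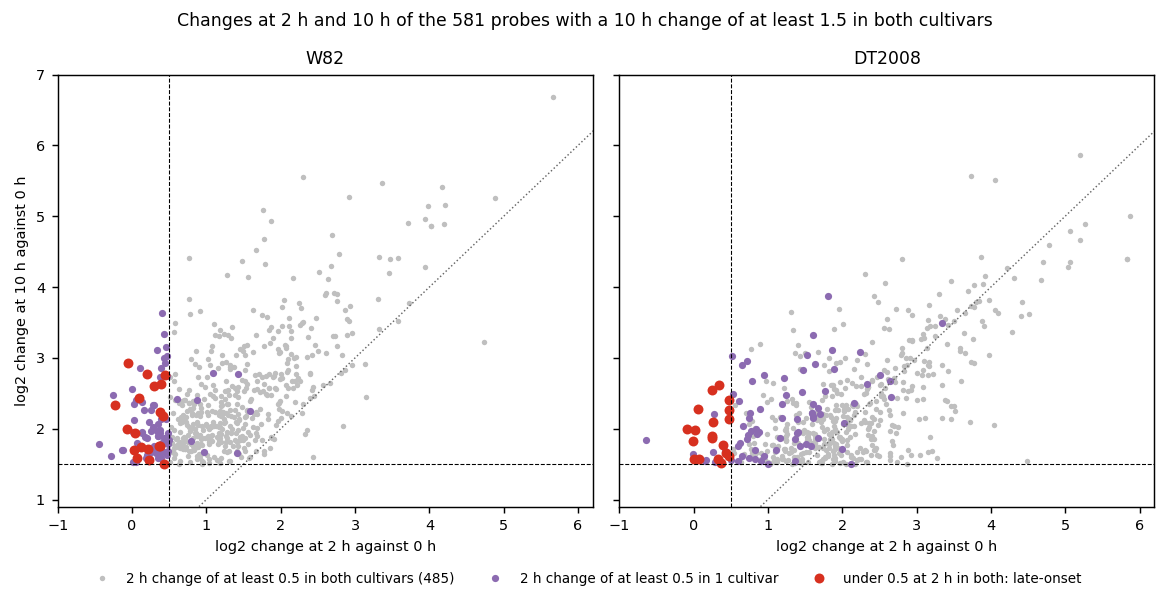
Log2 changes against 0 h at 2 h (x axis) and at 10 h (y axis) in W82 (left) and DT2008 (right), 1 point for each of the 581 probes with a 10 h change of at least 1.5 in both cultivars. Dashed lines mark 0.5 and 1.5 and the dotted line equal changes; the 19 late-onset probes (red) lie left of 0.5 in both panels, the 77 probes that pass it in 1 cultivar are violet and the other 485 grey.

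On the arrays themselves the step between 2 and 10 h was clear. For all 19 probes the 3 W-D10 values lay above all 6 W-C and W-D2 values, and the 3 DT-D10 values above all 6 DT-C and DT-D2 values. Of all probes 1.90% did so, and the rule favours such probes. The narrowest gap was 0.17 in W82 and 0.47 in DT2008. The 2 h arrays were not at the 0 h level throughout. In W82, the W-D2 values lay entirely above W-C for 6 members and overlapped with them for 13, and in DT2008 these numbers were 7 and 12. For no member did the 2 h arrays lie entirely below those of 0 h. Only 9 members overlapped at 2 h in both cultivars. Of all probes, 13.5% had W-D2 entirely above W-C, and 12.4% had DT-D2 entirely above DT-C. The shares entirely below were 14.2% for W-D2 against W-C and 12.8% for DT-D2 against DT-C. The share of all probes that overlapped in both cultivars was not taken, so that count of members is not read further.

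**Figure D2:**
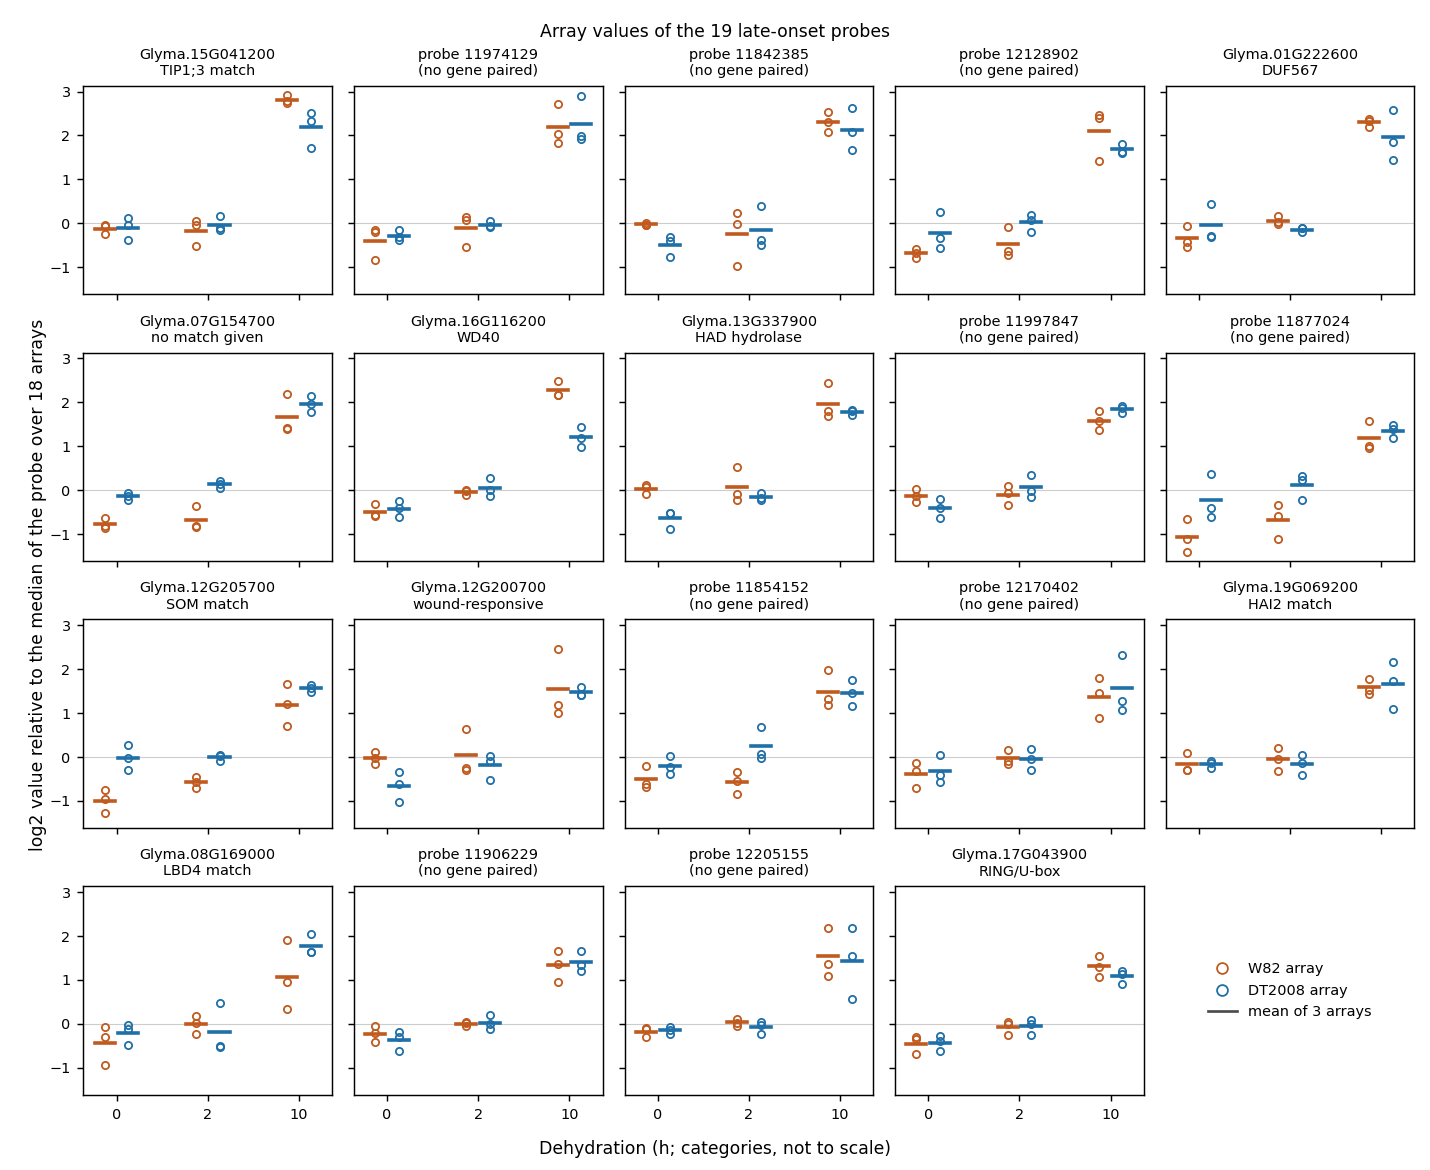
Log2 values of the 19 late-onset probes on each array (circles) relative to the probe's median over 18 arrays (y axis) at 0, 2 and 10 h (x axis, categories), W82 in orange and DT2008 in blue, with the mean of 3 arrays as a bar. In every panel the 10 h circles of a cultivar lie above its 0 h and 2 h circles, with the narrowest gap, 0.17 in W82, for Glyma.08G169000.

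The member of the ABA pathway was Glyma.19G069200. Its best Arabidopsis match is HAI2 (AT1G07430), a highly ABA-induced clade A PP2C that acts as a brake on ABA signalling there. The W82 arrays read 0.09, -0.29 and -0.28 at 0 h, -0.31, -0.05 and 0.21 at 2 h, and 1.43, 1.54 and 1.78 at 10 h. The DT2008 arrays read -0.10, -0.26 and -0.13 at 0 h, -0.40, 0.05 and -0.15 at 2 h, and 1.72, 2.16 and 1.10 at 10 h. The 0 and 2 h arrays overlapped in both cultivars and the 10 h arrays stood apart. For W82 the log2 change was 0.11 after 2 h and 1.74 (SE 0.21) after 10 h, for DT2008 it was -0.01 and then 1.82, a 3.35-fold and a 3.53-fold level at 10 h. The cultivars differed by 0.00, -0.12 and 0.08 at 0, 2 and 10 h, less than the SE of 0.21.

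Beside it stood 15 other probes of a list of ABA signalling genes, all 16 from the study's tables. Those tables include genes selected on these arrays, so the 16 are no sample of all genes. They also hold genes that changed little, such as Glyma.01G060300, matching AFP2, which was called in none of the 4 comparisons. With HAI2 included, 8 of the 16 were upregulated and 4 downregulated at 10 h in W82, where upregulated means an adjusted p under 0.05 over all probes and at least 2-fold. For DT2008 the numbers were 7 and 4. At 2 h, 1 was upregulated and 2 downregulated in W82 (W-D2/W-C), against 1 and 1 for DT-D2/DT-C. The shares of all probes upregulated and downregulated were 3.49% and 1.66% for W-D10/W-C, 2.75% and 1.71% for DT-D10/DT-C, 1.83% and 0.884% for W-D2/W-C, and 2.89% and 1.19% for DT-D2/DT-C. The other PP2C genes that were upregulated at 10 h in both cultivars had larger 2 h changes than Glyma.19G069200. The rule chose that gene for 2 h changes under 0.5, so this order is a description and is not read further. Glyma.11G222600, matching PP2CA, had a log2 change of 0.47 in W82 and 0.63 in DT2008 at 2 h, then 1.64 and 1.80. Glyma.05G227100, matching ABI1, had 0.51 and 0.61 at 2 h and 1.71 and 1.38 at 10 h. All 4 probes matching PYL receptors were downregulated in W-D10/W-C and 2 of them in DT-D10/DT-C. Among these, Glyma.11G233300, matching PYL5, fell by 1.17 in W82 and by 1.16 in DT2008 at 10 h. Glyma.01G225100, matching HAI3, was upregulated in DT-D2/DT-C alone of the 4 comparisons, by 1.03.

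A transcriptional regulator with a role in seed germination was next. Glyma.12G205700 matches SOM (SOMNUS, AT1G03790), a CCCH zinc finger protein that holds back light-dependent seed germination in Arabidopsis. Its W82 arrays read -0.75, -1.27 and -0.96 at 0 h, -0.45, -0.70 and -0.57 at 2 h and 0.72, 1.66 and 1.21 at 10 h. The DT2008 arrays read -0.03, -0.29 and 0.28, then 0.03, 0.05 and -0.08, then 1.58, 1.48 and 1.63. At 0 and 2 h every DT2008 array lay above every W82 array, while at 10 h the cultivars overlapped. The 10 h change was 2.19 (SE 0.20) in W82 and 1.58 in DT2008. The difference DT-C/W-C was 0.98 (SE 0.20, adjusted p = 0.0029 by limma), just under the 2-fold threshold, that in DT-D2/W-D2 was 0.57 (adjusted p = 0.0621) and that in DT-D10/W-D10 was 0.37 (adjusted p = 0.366). Without W-C replicate 1 or DT-C replicate 2 the difference at 0 h passed 2-fold, at 1.10 and 1.12. It was 0.84 without W-C replicate 2, 0.83 without DT-C replicate 3 and 0.83 after quantile normalization, and the methods' t-test gave an adjusted p of 0.147.

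Soybean carries several genes with this match, and both others named in the study's tables were already upregulated at 2 h in DT2008. Further probes with this match may have no name here. Glyma.06G290100 was upregulated in all 4 comparisons, with a log2 change for W82 of 1.26 (SE 0.24, adjusted p = 0.0024) after 2 h and 2.53 after 10 h, and for DT2008 of 2.82 and 2.55. Glyma.12G116900 had 0.41 (adjusted p = 0.148) and 2.21 in W82, where its course lay on that of the late-onset gene, and 1.08 (adjusted p = 0.00017) and 1.40 in DT2008. At 2 h in DT2008 the 3 genes thus ran from 0.01 to 2.82. The 6 probes described as CCCH zinc fingers all come from the study's tables and are no sample of that family. Of these, 4 were upregulated at 10 h in each cultivar, the late-onset gene and both relatives among them, and 2 at 2 h in each.

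Glyma.08G169000 matches LBD4 (AT1G31320) of the LOB domain family, plant transcription factors known for their work at organ boundaries and in root and vascular development. Its W82 arrays read -0.30, -0.08 and -0.94 at 0 h, 0.02, -0.22 and 0.17 at 2 h and 0.34, 1.90 and 0.95 at 10 h. In DT2008 they read -0.02, -0.48 and -0.12, then -0.52, 0.48 and -0.51, then 1.64, 2.05 and 1.64. It had the widest scatter of the members (SE 0.32), and at 1.51 in W82 it lay just inside the 10 h threshold, with 1.98 in DT2008. DT-D10/W-D10 was 0.71 (adjusted p = 0.266), with 1.13 (adjusted p = 0.0467) without W-D10 replicate 2 and 0.35 (adjusted p = 0.703) without W-D10 replicate 1.

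The largest mean of both 10 h changes belonged to a water channel gene. Glyma.15G041200 matches TIP1;3 (AT4G01470), a tonoplast intrinsic protein, that is, an aquaporin of the vacuole membrane. Its W82 arrays read -0.25, -0.05 and -0.05 at 0 h, -0.51, 0.04 and -0.05 at 2 h and 2.74, 2.92 and 2.78 at 10 h. In DT2008 they read 0.13, -0.38 and -0.04, then -0.10, -0.16 and 0.16, then 2.33, 2.51 and 1.72. All 0 and 2 h values of both cultivars intermingled. For W82 the change was -0.06 after 2 h and 2.93 (SE 0.19) after 10 h, a 7.63-fold level, and for DT2008 it was 0.06 and then 2.28, a 4.87-fold level. At 10 h every W82 array lay above every DT2008 array, but the difference of -0.63 in DT-D10/W-D10 did not pass the test (SE 0.19, adjusted p = 0.0741).

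Both other genes named in the study's tables with a TIP1;3 match were also upregulated at 10 h. Glyma.13G333100 had the larger changes, 4.40 (SE 0.30, adjusted p = 1.3e-08) for W82 and 3.40 for DT2008 at 10 h, and in DT2008 it was already upregulated at 2 h, by 1.34 (adjusted p = 0.0063), against 0.77 (adjusted p = 0.147) in W82. Glyma.11G143100 had 0.46 and 0.72 at 2 h, neither reaching 2-fold, and 2.14 and 1.86 at 10 h. The list of aquaporins held 8 probes, 6 of them from the study's tables, which include genes selected on these arrays. It is thus no sample of soybean aquaporins. Of all probes, 3.49% were upregulated at 10 h in W82 and 2.75% in DT2008. Of the 8, 6 were upregulated and 1 downregulated at 10 h in each cultivar. At 2 h, 1 was upregulated in W82, and 2 upregulated and 1 downregulated in DT2008. The downregulated gene was Glyma.18G198300, matching the plasma membrane channel PIP1;4, which fell by 1.09 in W82 and by 1.45 in DT2008 at 10 h.

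Glyma.17G043900 (array symbol LOC100306203) matches AT5G20885, a RING/U-box protein. Many such proteins are E3 ubiquitin ligases, which often mark other proteins for breakdown. The W82 arrays read -0.34, -0.31 and -0.69 at 0 h, 0.00, 0.05 and -0.24 at 2 h and 1.07, 1.30 and 1.56 at 10 h. The DT2008 arrays read -0.62, -0.27 and -0.39, then 0.00, -0.25 and 0.08, then 1.22, 1.14 and 0.91. Every 2 h array lay above every 0 h array in both cultivars, with changes of 0.38 and 0.37, and those at 10 h were 1.76 (SE 0.16) and 1.52. The latter lies just inside the threshold.

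Glyma.13G337900 matches AT5G59480, a hydrolase of the haloacid dehalogenase (HAD) superfamily, many of whose enzymes remove phosphate groups. It read 0.11, -0.10 and 0.06 in W-C, -0.23, 0.53 and -0.09 in W-D2 and 1.80, 1.68 and 2.44 in W-D10. In DT2008 it read -0.51, -0.51 and -0.87 at 0 h, -0.06, -0.19 and -0.22 at 2 h and 1.80, 1.70 and 1.82 at 10 h. The DT-C arrays lay below all others of this gene, so that the larger change was in DT2008, 2.41 against 1.94 (SE 0.20), while the 10 h levels of the cultivars overlapped. DT-C/W-C was -0.66 (SE 0.20, adjusted p = 0.0366), under 2-fold, and DT-D10/W-D10 was -0.20 (adjusted p = 0.69). The difference at 0 h had an adjusted p of 0.0832 after quantile normalization, 0.0539 with the replicate number as a block, 0.131 by the methods' t-test and up to 0.154 without 1 array.

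The remaining 4 named members have no well-described role. Glyma.16G116200 matches AT4G35560, a WD40 repeat protein, a family whose members hold protein complexes together. Its W82 arrays read -0.60, -0.56 and -0.31 at 0 h, 0.01, -0.01 and -0.11 at 2 h and 2.16, 2.48 and 2.16 at 10 h. In DT2008 they read -0.62, -0.24 and -0.40, then 0.29, 0.01 and -0.14, then 1.19, 1.43 and 0.98. The cultivars overlapped at 0 and 2 h and were apart at 10 h, when all W82 arrays lay above 2.1 and all DT2008 arrays below 1.5. The 10 h change was 2.76 (SE 0.16) in W82 and 1.62 in DT2008. In DT-D10/W-D10 the gene was 2.10-fold lower in DT2008 (log2 -1.07, SE 0.16, adjusted p = 0.000315), and it was the sole member called in any comparison of the cultivars. The difference fell short of 2-fold without W-D10 replicate 2 or DT-D10 replicate 3 (-0.96 each) and after quantile normalization (-0.87), and the methods' t-test gave an adjusted p of 0.134. Its 2 h changes, 0.45 in W82 and 0.47 in DT2008, were close to the threshold, the former the closest to it in W-D2/W-C.

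The other named genes matching AT4G35560 differed from it and from each other. Glyma.11G085900 was upregulated in DT-D2/DT-C, by 2.04 (SE 0.28, adjusted p = 6e-05), and at 10 h in both cultivars, by 2.40 and 2.57, with 0.71 (adjusted p = 0.138) in W-D2/W-C. Glyma.09G198200 had 0.50 and 0.55 at 2 h and was upregulated at 10 h in W82 (1.77) but did not reach 2-fold in DT2008 (0.87, adjusted p = 0.0117). The difference between the cultivars' 10 h changes was not past the threshold for either (adjusted p = 0.915 and 0.237), nor was that between the 2 h changes of Glyma.11G085900 (1.32, adjusted p = 0.157). Of all probes, 0.42% passed this test at 2 h and 0.394% at 10 h.

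Glyma.01G222600 encodes a protein of unknown function with a DUF567 domain, matching AT5G41590. The W82 arrays read -0.42, -0.05 and -0.53 at 0 h, -0.03, 0.18 and 0.03 at 2 h and 2.20, 2.33 and 2.37 at 10 h. The DT2008 arrays read -0.29, -0.31 and 0.45, then -0.11, -0.11 and -0.20, then 1.84, 2.58 and 1.45. The 2 h values lay above those of 0 h in W82 and among them in DT2008. Its 10 h changes were 2.64 (SE 0.23) and 2.00. Glyma.11G020800, with the same match, had a like course in W82 (0.40 at 2 h and 2.44 at 10 h, adjusted p = 2.1e-05), whereas in DT2008 its 10 h change of 0.78 did not pass the test (adjusted p = 0.113). DT-D10/W-D10 was -1.30 for that gene (SE 0.31, adjusted p = 0.0184), and the test of the difference between the 10 h changes gave -1.65 (adjusted p = 0.109).

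Glyma.12G200700 matches AT4G10265, of the wound-responsive family, small proteins some of which are known from low-oxygen responses. It read 0.11, -0.03 and -0.17 in W-C, -0.29, 0.64 and -0.24 in W-D2 and 1.19, 1.01 and 2.46 in W-D10. In DT2008 it read -0.35, -0.62 and -1.01, then 0.03, -0.08 and -0.52, then 1.40, 1.42 and 1.60. One W-D10 array stood above the other two by more than 1.2. The 10 h change was 1.58 (SE 0.30) in W82 and 2.14 in DT2008, and without that array the W82 change no longer met the rule.

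None of the 7 other probes with this match was upregulated in any of the 4 comparisons. In W82, 6 of the 7 were downregulated at 2 h and 6 at 10 h, and in DT2008, 5 and 4. They were named through tables that include genes selected on these arrays, so their counts cannot be set against those of all probes. Glyma.06G302900 showed the lowest value, with log2 changes of -4.20 in W82 (SE 0.24, adjusted p = 4.7e-09) and -3.48 in DT2008 after 2 h. Glyma.13G301400 had -3.57 and -3.23 after 2 h, and -3.25 and -2.64 after 10 h. Glyma.06G297600 stood at 3.15, 3.54 and 4.07 on the W-C arrays but at 0.14, -0.01 and 0.06 on those of DT-C. It fell by 3.80 within 2 h in W82 (SE 0.29, adjusted p = 1.1e-07) and had -0.25 in DT2008 (adjusted p = 0.677).

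**Figure D3:**
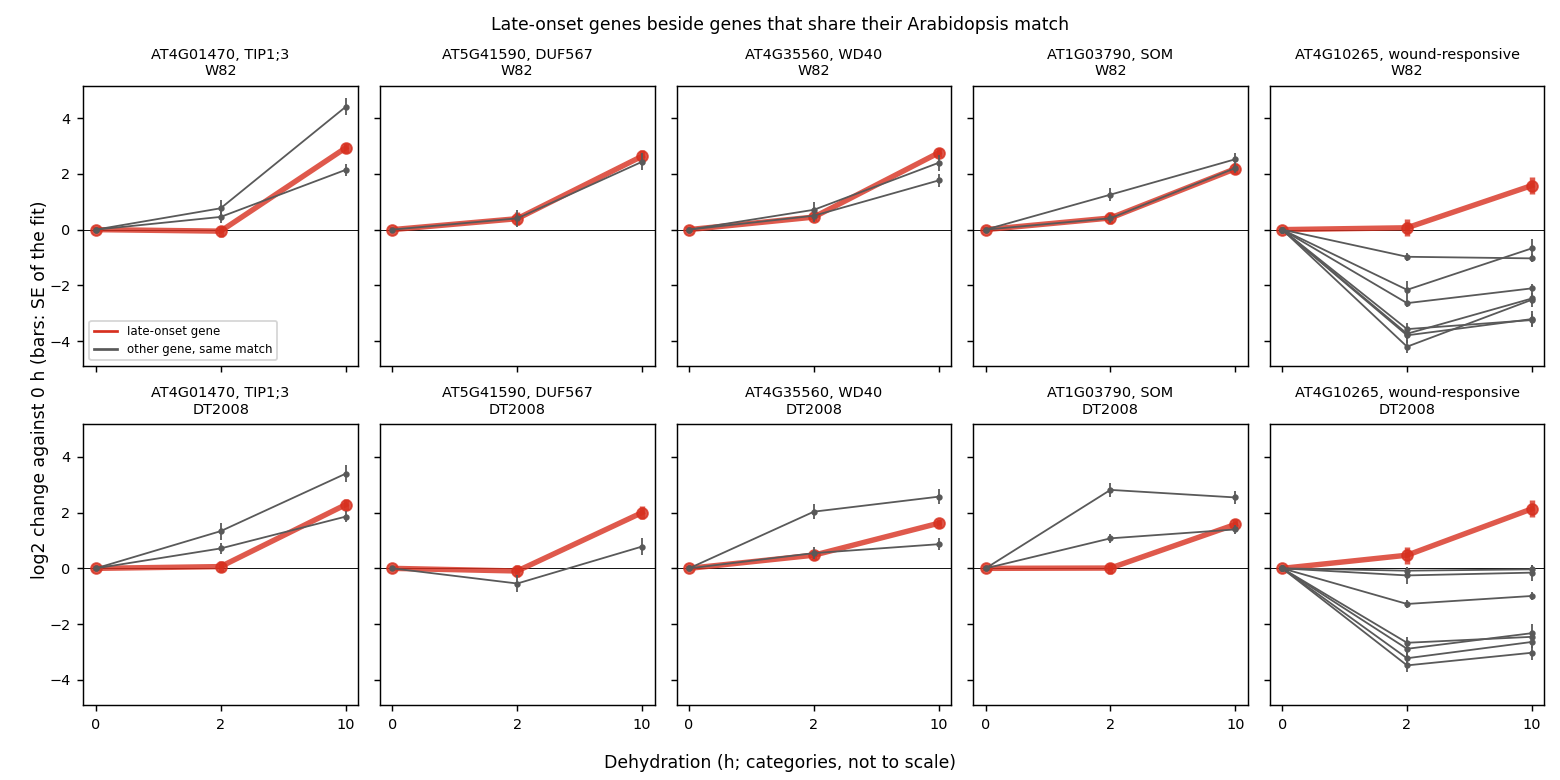
Log2 changes against 0 h (y axis, bars are the SE of the fit) at 2 and 10 h (x axis, categories) in W82 (top) and DT2008 (bottom) for the 5 late-onset genes that share their Arabidopsis match with other named genes (red) and for those 14 genes (dark lines). The genes matching AT4G10265 lie at or below 0 except the late-onset one, and in DT2008 the SOM matches part at 2 h, from 0.01 to 2.82.

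Glyma.07G154700 has neither an Arabidopsis match nor a description in the tables. It read -0.62, -0.86 and -0.81 in W-C, -0.36, -0.83 and -0.82 in W-D2 and 1.39, 1.43 and 2.19 in W-D10, against -0.22, -0.05 and -0.12, then 0.13, 0.22 and 0.05, then 1.77, 2.15 and 1.96 in DT2008. DT2008 lay above W82 without overlap at 0 and 2 h, and the cultivars overlapped at 10 h. The 10 h changes were 2.43 (SE 0.19) and 2.09. The cultivar difference was 0.63 in DT-C/W-C (adjusted p = 0.0342) and 0.80 in DT-D2/W-D2 (adjusted p = 0.00728), both under 2-fold, and 0.29 in DT-D10/W-D10 (adjusted p = 0.472). After quantile normalization the 2 h difference reached 2-fold (1.00), and the methods' t-test gave it an adjusted p of 0.0958. That at 0 h had an adjusted p of 0.0863 after quantile normalization, 0.078 by the methods' t-test and up to 0.107 without 1 array.

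Among the 9 members with no gene paired here were some of the largest changes. Probe 11974129 had 10 h changes of 2.60 (SE 0.27) in W82 and 2.55 in DT2008, nearly equal, with array values of 2.04, 2.72 and 1.84 in W-D10 and 2.90, 1.93 and 1.98 in DT-D10. Probe 11842385 had 2.33 (SE 0.29) and 2.62, from 2.53, 2.07 and 2.32 in W-D10 and 1.67, 2.62 and 2.08 in DT-D10, and the lowest 2 h change in W82, -0.23. Probe 12128902 had 2.77 (SE 0.25) and 1.90, from 2.46, 1.42 and 2.40 and from 1.63, 1.61 and 1.81. The groups of both cultivars overlapped at 10 h for each of these probes. Probe 11997847 had 1.70 (SE 0.17) and 2.26, and at 0.47 its DT-D2/DT-C change was the closest to that threshold. Probe 11877024, with 2.24 (SE 0.26) and 1.57, was a further member with a lower start in W82, at -1.11, -0.66 and -1.40 in W-C against -0.41, -0.62 and 0.38 in DT-C. Its DT-C/W-C difference of 0.84 was under 2-fold (adjusted p = 0.0435, and 0.145 after quantile normalization and 0.344 by the methods' t-test). Probe 11854152 had 10 h changes of 1.99 and 1.66 and a DT-D2/W-D2 difference of 0.82 (SE 0.23, adjusted p = 0.0238, and 0.189 by the methods' t-test). The last, probes 12170402, 11906229 and 12205155, had 10 h changes of 1.55 to 1.87, and none of their cultivar differences was larger than 0.19 in size.

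The comparisons of the cultivars at a given time were not used in choosing the members, which bounded the changes of both cultivars alike. In DT-C/W-C, 0 of the 19 were called by limma, against 3.50% of all probes, in DT-D2/W-D2 0, against 4.21%, and in DT-D10/W-D10 1, against 1.73%. The counts in DT-C/W-C and DT-D10/W-D10 are near the background. The dehydrated cultivars also differed in water content, so a difference at 2 or 10 h cannot be put down to cultivar alone. The methods' t-test called 0 in each. At an unadjusted p under 0.05, 4, 4 and 3 members passed by limma, against 24.0%, 27.0% and 17.2% of all probes. Regardless of fold, 4 members had an adjusted p under 0.05 in DT-C/W-C, against 11.7% of all probes: Glyma.12G205700, Glyma.07G154700 and probe 11877024 were higher in DT2008 and Glyma.13G337900 was lower. There were 2 such members in DT-D2/W-D2, Glyma.07G154700 and probe 11854152, against 14.3% of all probes, and 1 in DT-D10/W-D10, against 4.96%. By the methods' t-test no member had an adjusted p under 0.05 in any of the 3 comparisons, and in DT-C/W-C there was 1 such member after quantile normalization (Glyma.12G205700), 2 with the replicate block and 1 to 4 without 1 array. The differences ran from -0.66 to 0.98 at 0 h, from -0.23 to 0.82 at 2 h and from -1.07 to 0.71 at 10 h, with medians of 0.07, 0.07 and -0.03, beside 0.01, 0.03 and 0.02 over all probes. The rule does limit how far the cultivars' changes can part at 2 h, so the narrow range there and the counts in DT-D2/W-D2 are not read further.

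**Figure D4:**
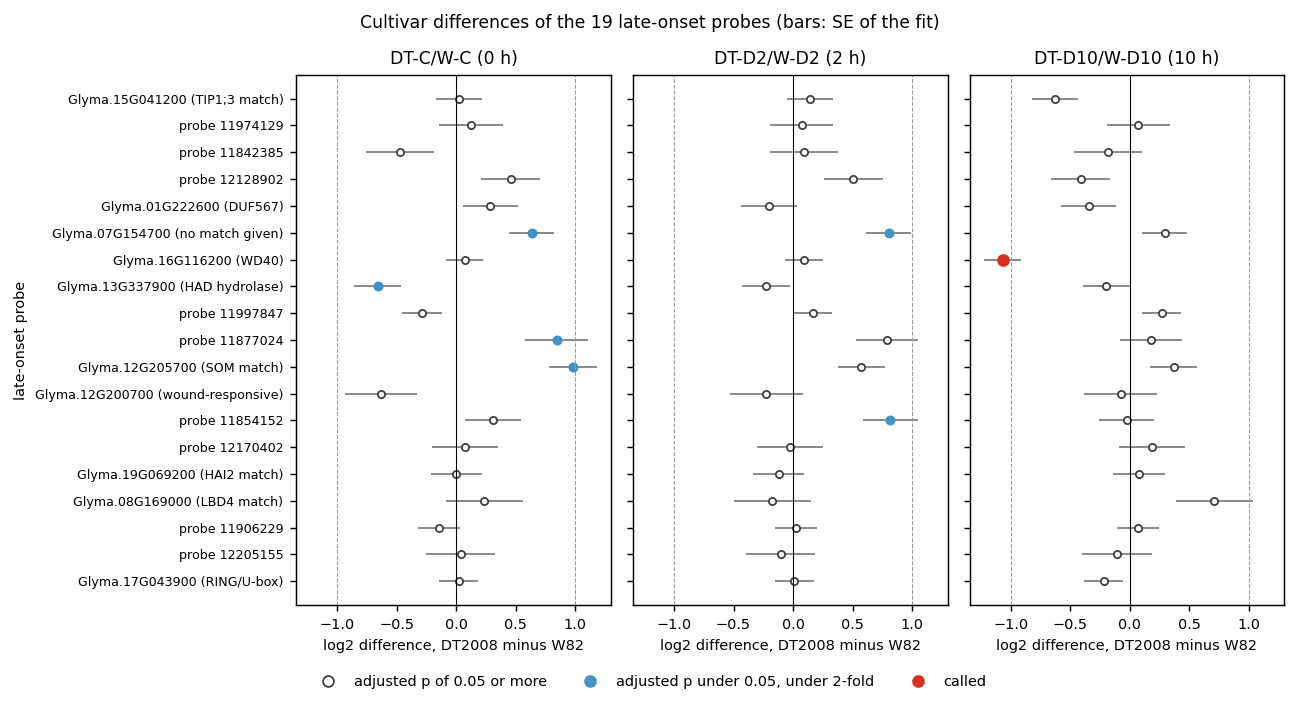
Log2 difference of DT2008 minus W82 (x axis, bars are the SE of the fit) for each of the 19 late-onset probes (y axis, by falling mean of both 10 h changes) at 0, 2 and 10 h. Blue points have an adjusted p under 0.05 but are under 2-fold; the sole called point (red) is Glyma.16G116200 at 10 h, at -1.07.

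In W82 the 10 h change was the larger for 11 of the 19 members and in DT2008 for 8. The difference between them, DT2008 minus W82, ran from -1.14 for Glyma.16G116200 to 0.56 for probe 11997847, with a median of -0.14, and 8 members differed by at least 0.5. These differences are built from the changes the rule used and were not tested.

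The edges of the rule held many probes. Just inside were Glyma.08G169000 at 1.51 in W-D10/W-C, Glyma.17G043900 at 1.52 in DT-D10/DT-C, Glyma.16G116200 at 0.45 in W-D2/W-C and probe 11997847 at 0.47 in DT-D2/DT-C. Just outside, failing 1 condition, were probe 11794095 at 1.46, Glyma.05G022600 (a UDP-glucose 6-dehydrogenase, which makes a precursor of cell wall sugars) at 1.48, Glyma.14G130800 (a protein with a DUF581 domain) at 0.60 and Glyma.19G181600 at 0.50. In total, 19 probes failed only the W-D10/W-C condition, 70 only that of DT-D10/DT-C, 8 only that of W-D2/W-C and 69 only that of DT-D2/DT-C.

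Because the same arrays chose the members, the rule was also applied to 2 arrays of every group. The changes were read in the third, which gives 1 array against 1. The rule was set with earlier results of these data known, so the third array gives no independent test. Setting the chosen probes beside all probes shows only how far the repeats of a group resemble one another. With repeat 1 held back, 24 probes met the rule, and in the repeat not used 13 of them had both 10 h changes at the rule's 1.5 or more (0.764% of all probes did so), 19 had them at 1 or more (1.81%), 14 had both 2 h changes under 0.5 and 4 met all 4 conditions (0.0136%). With repeat 2 held back, 11 probes met the rule, of which 8 reached 1.5 (0.977% of all probes), 10 reached 1 (2.15%), 5 had both 2 h changes under 0.5 and 5 met all 4 conditions (0.0332%). With repeat 3 held back, 16 probes met it, of which 4 reached 1.5 (0.799%), 12 reached 1 (1.93%), 10 had both 2 h changes under 0.5 and 3 met all 4 conditions (0.0196%). The share of all probes with both 2 h changes under 0.5 was not taken here, so the counts of chosen probes that met it are not read further. The median change in the array not used was 1.72 to 2.12 in W82 and 1.22 to 2.42 in DT2008 at 10 h, and 0.17 to 0.22 and 0.19 to 0.48 at 2 h.

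Of 17 gene lists by role, 3 held a member, those of ABA signalling, aquaporins and CCCH zinc fingers, with 1 each. The 14 lists with no member (raffinose family sugars, LEA and dehydrin proteins, NAC, MYB, AP2/ERF, bZIP, WRKY, homeobox, GRAS and GATA factors, membrane transporters, redox proteins, cell wall enzymes and seed maturation proteins) had 2 to 66 probes. Only the 10 named members could fall in a list. Most of the listed genes come from the study's tables, which include genes selected on these arrays. Nothing is therefore read from the lists without a member.

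Markers of other tissues could be followed only as differences between groups. The 6 probes of photosynthesis proteins, which would mark shoot tissue, had a median 10 h change of 0.87 for W82 and 0.80 for DT2008, with 3 and 2 of the 6 upregulated and 1 and 0 downregulated, and a median 2 h change of 0.38 and 1.04. The median of these probes on an array lay between -0.64 and -0.42 in W-C, -0.45 and 0.02 in W-D2, 0.05 and 0.46 in W-D10, -0.56 and -0.31 in DT-C, 0.33 and 0.79 in DT-D2 and -0.17 and 0.53 in DT-D10. The 12 nodulin probes, which would mark nodules, had median changes of -0.05 and -0.02 at 10 h. The 1 probe matching a root meristem growth factor was upregulated in all 4 comparisons. That probe, all 6 photosynthesis probes and 2 of the 12 nodulin probes come from the study's tables, which include genes selected on these arrays. They are thus no sample of such genes, and their counts cannot be set against those of all probes. As values are relative to each probe's median, whether a marker was near background cannot be read, and the part of these shifts in the late-onset probes was not tested.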

How the data were processed

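The authors deposited log2 intensities of 66195 probes, 18 arrays in all, made with RMA in Affymetrix Expression Console per the labels. Every probe was centred on its median over the 18 arrays. Array medians lay between -0.02 and 0.02 and no new scaling was applied. limma 3.58.1 in R 4.3.3 was fitted to all arrays, 1 mean per group (12 residual and 6.28 prior degrees of freedom), and tested on simulated data. A probe was called at a Benjamini-Hochberg adjusted p under 0.05 over all probes and at least 2-fold. Errors are SE of the fit, and 3 arrays per group limit the precision. Members and lists were chosen with earlier results of these data known. Named in full were the 10 largest mean 10 h changes, members called between cultivars, up to 4 per role list, genes sharing an Arabidopsis match and those at each threshold. The parts of the study's tables used here paired 1938 probes with a gene, and with array symbols 4821 had exactly 1. Their columns of fold changes and q-values were not used. Alternatives were group medians, other thresholds, centred arrays, quantile normalization, a replicate block, only the arrays compared, the methods' Student's t-test, no fold threshold and each array left out. Sequences, promoter motifs and probe cross-hybridization were not analysed here. Tables and figures were made with Python, pandas, NumPy and Matplotlib.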

Additional observations from a re-analysis of the deposited data

Results flagged for a closer look

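No group has the 4 arrays that a check for outlying arrays needs, and for the late-onset probes themselves the difference between the cultivars' dehydration changes is built from the values that chose them. Among the 14 genes sharing a match with a member, 3 had dehydration changes that differed between the cultivars by the interaction test of limma (adjusted p under 0.05 over all probes and at least 2-fold). Of all probes, 0.42% passed this test at 2 h and 0.394% at 10 h. The 14 genes, however, were named through tables that include genes selected on these arrays and are no sample of all probes. For Glyma.06G290100, matching SOM, the 2 h change was larger in DT2008 by 1.56 (SE 0.34, adjusted p = 0.0475). For Glyma.06G297600, matching AT4G10265, the DT2008 change was above that of W82 by 3.54 at 2 h (SE 0.41, adjusted p = 0.00069) and by 3.06 at 10 h (adjusted p = 0.0019). For Glyma.06G303000, with the same match, the DT2008 change was above that of W82 by 1.36 at 2 h (SE 0.22, adjusted p = 0.00772) and by 1.12 at 10 h (adjusted p = 0.0333). Its means also parted at 0 h, at 2.07 in W-C and 0.95 in DT-C, against -0.57 in W-D2 and -0.32 in DT-D2.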

How the results depend on the processing

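The number of probes meeting the rule depended most on its thresholds: 5 at a 10 h change of at least 2, 123 at 1, and 4 at a 2 h change under 0.25, against 19. It was 26 after quantile normalization (16 of the members) and 19 with group medians (14 of the members), and ran from 15 to 27 without 1 array, when 14 to 19 of the members met it. Only 4 members met it in all 18 such settings: Glyma.15G041200, Glyma.07G154700, Glyma.19G069200 and probe 12128902. Members called in DT-C/W-C numbered 0 to 2 without 1 array, 0 otherwise and 4 with no fold threshold. Glyma.12G205700 was called there without W-C replicate 1 (1.10) and without DT-C replicate 2 (1.12). In DT-D2/W-D2 they numbered 0 without any 1 array, 1 after quantile normalization (Glyma.07G154700, 1.00) and 2 with no fold threshold. In DT-D10/W-D10 the count was 0 to 1 without 1 array and 0 after quantile normalization and by the methods' t-test, which lost Glyma.16G116200 (-0.87, under 2-fold, and adjusted p = 0.134). That gene was also under 2-fold without W-D10 replicate 2 (-0.96) or DT-D10 replicate 3 (-0.96), and its adjusted p over the 23 alternatives ran from 0.000252 to 0.134. Glyma.08G169000 was called in DT-D10/W-D10 without W-D10 replicate 2 (1.13, adjusted p = 0.0467). No called difference changed sign. Same-numbered arrays of different groups did not deviate together (3 of 45 pairs over 0.1, from -0.17 to 0.19). No pairing by number was thus seen, which cannot show whether the repeats were paired by design. The replicate block left the counts at 0, 0 and 1.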
